A study of Mus musculus with 24 samples.

Results

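MOZ-TIF2 GMP were compared with AML1-ETO GMP, 2 kinds of oncogene-carrying mouse blood progenitors harvested 36 hours after infection, and made up 8 of the 24 arrays of the series. GMP are granulocyte monocyte progenitors, the cells that give rise to granulocytes and monocytes. All were of strain C57BL/6 and were taken as GFP-positive cells, and they differed in the fusion oncogene that the virus carried. The MOZ-TIF2 group had 4 arrays (titled MT2-GMP 1 to 4) and the AML1-ETO group 4 (AE-GMP 1 to 4). GMP given the GFP vector alone (3 arrays) and NUP98-HOXA9 GMP (3 arrays), treated the same way, shared the fit, which thus used 14 arrays. Nothing in the labels ties a replicate to an animal, culture or infection of its own, so the p-values cover the spread among these arrays only, and that spread may be technical. The design text sets each oncogene against the vector; here the oncogenes were set against each other. How much fusion protein each culture made was not measured.

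MOZ-TIF2 joins the histone acetyltransferase KAT6A (MOZ) to the nuclear receptor coactivator NCOA2 (TIF2), and AML1-ETO joins the DNA-binding part of RUNX1 (AML1) to RUNX1T1 (ETO), a protein that recruits corepressors and histone deacetylases. Both fusions come from human acute myeloid leukemia. MOZ-TIF2 is known for conferring self-renewal on committed progenitors such as GMP and for keeping HOXA genes on, while AML1-ETO is known for blocking the function of C/EBP alpha and other regulators of granulocyte differentiation. Values are log2 expression values made by GCRMA, which corrects background by probe sequence; differences are MOZ-TIF2 minus AML1-ETO on the log2 scale. A gene is represented by its brightest probe set and counts as called at a limma adjusted p under 0.05 over all 11411 probe sets tested.

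MOZ-TIF2 GMP held more RNA of most genes listed for ribosome building and amino acid synthesis, of 15 of 39 DNA replication genes, and more of Hoxa9, Myc and Cebpa. AML1-ETO GMP held more RNA of arginase (Arg1), the protease inhibitor Serpinb2, the chemokines Ppbp, Cxcl2 and Pf4, Id2, Id3, 15 of 24 immediate early genes, 7 of 13 NF-kB pathway genes and 10 of 26 genes of glycolysis and hypoxia. The largest difference was that of Arg1, at least 70.1-fold lower in MOZ-TIF2 GMP, and the largest increase was that of Cth, 6.83-fold. Of 7097 genes tested, 862 were called higher in MOZ-TIF2 GMP (12.1%) and 1273 lower (17.9%), together 2135 (30.1%), beside 3247 of 11411 probe sets (28.5%), 1401 higher (12.3%) and 1846 lower (16.2%). A fold of 2 or more was reached by 150 of the genes called higher and 319 of those called lower. The median difference over all genes tested was -0.03. Arrays of both groups did not overlap in 1730 of the 2135 called genes, against 29% of all genes tested.

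On each of the 8 arrays 46.6% to 48.3% of probe sets lay over a linear value of 60, the background level that the design text gives. The raw file names of these 8 and of the GFP arrays carry 1 of 2 tags. Tag A, as called here, covers MOZ-TIF2 1 to 3, AML1-ETO 1 and all GFP arrays, and tag B covers MOZ-TIF2 4 and AML1-ETO 2 to 4. Tag and oncogene thus partly coincide. NUP98-HOXA9 replicate 3 carries neither tag and was left out of the fits that use the tag. The first principal component of the 14 arrays (35.7% of the variance) put MOZ-TIF2 arrays at 18.1 to 31.7, GFP arrays at 6.62 to 15.4 and AML1-ETO arrays at -39.1 to -27.7. On the second (23.1%) the arrays of tag B lay higher within both groups. AML1-ETO 2 to 4 lay at 14.5 to 18.3 against -32.2 for replicate 1, and MOZ-TIF2 4 at 27.8 against 4.65 to 12.5 for replicates 1 to 3. GFP arrays, all of tag A, lay at -14.9 to -10.3. With the tag as a factor, 1924 of the 2135 genes were called again with the same sign, and the shares called became 21.4% higher and 18.2% lower. Granulocyte monocyte progenitor markers (9 of 9 over background in both groups) summed to 15.4 to 15.5 on the log2 scale in MOZ-TIF2 and 14.8 to 15.2 in AML1-ETO GMP. The sum is of linear values and rests mostly on the brightest, Mpo, Elane, Prtn3 and Ctsg. These, Ms4a3 and Kit were called higher, while Cd34 (-1.58) and Fcgr3 (-0.58, adjusted p = 0.04) were called lower. Csf2rb (-0.42, adjusted p = 0.4) was not called. Of the markers of other cells, 1 of 5 for red cells, 0 of 4 for B and T cells and 1 of 4 for stroma had a mean over background, in both groups alike. Stem cell markers had 1 of 4 over background in MOZ-TIF2 and 2 in AML1-ETO GMP (sums of 7.20 to 7.53 and 7.31 to 8.49), with a difference of -1.05 for Procr (adjusted p = 0.157). Eosinophil markers had 0 and 1 of 3 (5.74 to 6.69 and 7.07 to 8.01). Their part in the differences was not tested. The 3' minus 5' signal of Gapdh, a measure of RNA integrity, spanned 2.67 to 3.96 in MOZ-TIF2 and 2.50 to 4.07 in AML1-ETO arrays.

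The 12 genes with the largest increases in MOZ-TIF2 GMP were Cth, Bex6, Rgs18, Chdh, Ankrd28, Bace1, Ncoa4, Hoxa9, Frat2, B4galnt1, Fam107b and Klrb1f. Cth, the enzyme that makes cysteine from cystathionine, read 9.03, 9.05, 9.57 and 9.78 on the MOZ-TIF2 arrays and 5.95, 6.88, 6.04 and 7.48 on those of AML1-ETO. Every MOZ-TIF2 array lay above every AML1-ETO array, and the GFP arrays (mean 8.20 ± 0.74 SD, n = 3) lay between the group means. The difference was 2.77 (SE 0.36, adjusted p = 0.000105). Rgs18, a regulator of G protein signalling found in blood cells, read 9.94, 9.68, 9.52 and 10.27 against 6.45, 8.03, 7.23 and 7.28. Here the MOZ-TIF2 arrays stood alone, because the GFP mean (7.64 ± 0.06 SD, n = 3) was close to that of AML1-ETO (7.25 ± 0.65 SD, n = 4). The difference was 2.60 (SE 0.25, adjusted p = 1.15e-05), a 6.08-fold increase.

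Bex6, a member of the brain-expressed X-linked gene family, read 8.69, 7.98, 8.57 and 8.64 on the MOZ-TIF2 arrays and 4.98, 6.40, 5.46 and 5.98 on those of AML1-ETO. Its mean in AML1-ETO GMP was under 60, with arrays on both sides of that level. Against 60 its increase was 5.90-fold (difference 2.76, SE 0.28). Chdh, choline dehydrogenase, differed by 2.26 (SE 0.26) and Ankrd28, a regulatory subunit of protein phosphatase 6, by 2.25 (SE 0.33). Ncoa4, the receptor that delivers ferritin to autophagy, read 11.69, 11.00, 11.31 and 11.84 against 9.34, 9.57, 9.35 and 9.53. The tight AML1-ETO values (SD 0.12) and those of GFP (10.27 ± 0.06 SD, n = 3) left no overlap between these 3 groups. Differences of the remaining increases ran from 1.78 for Klrb1f, a lectin-like receptor of the natural killer gene complex, to 2.13 for Bace1, the beta-secretase. Frat2, which binds the kinase GSK3, B4galnt1, a ganglioside synthase, and Fam107b lay between.

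Decreases were larger. Arg1, which breaks down arginine and is a marker of alternatively activated myeloid cells, read 3.61, 5.38, 7.47 and 7.04 on the MOZ-TIF2 arrays and 11.24, 12.06, 12.29 and 12.56 on those of AML1-ETO. MOZ-TIF2 values were spread widely around background, while those of AML1-ETO were all high, and GFP lay between (8.49 ± 0.91 SD, n = 3). The difference was -6.16 (SE 0.66, adjusted p = 2.6e-05). Serpinb2, plasminogen activator inhibitor 2, read 2.87, 3.66, 3.78 and 3.07 against 6.73, 9.34, 9.91 and 10.03. It was under background in every MOZ-TIF2 and GFP array and over it in every AML1-ETO array, at least 8.55-fold (difference -5.66, SE 0.54). Within tag A its difference was -3.29 and within tag B -6.69.

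The platelet chemokine genes Ppbp and Pf4 were both lower in MOZ-TIF2 GMP. Ppbp read 5.48, 7.68, 6.07 and 5.44 against 9.64, 11.88, 10.94 and 12.09 (difference -4.97, SE 0.59, 31.4-fold). Pf4 read 8.31, 10.77, 7.78 and 6.75 against 10.81, 11.95, 11.36 and 12.17 (difference -3.17, SE 0.61), so that MOZ-TIF2 replicate 2 all but reached the lowest AML1-ETO array. Of the megakaryocyte markers, Itga2b was over background in both groups with means of 6.73 and 6.35 (difference 0.38, adjusted p = 0.536). Gp9, Gp1bb, Gp5 and Vwf had means under 60 in both groups, and the summed level of the 7 markers on the array (8.18 to 11.2 in MOZ-TIF2, 11.5 to 13.2 in AML1-ETO) followed Pf4 and Ppbp. In these bulk samples fewer cells of a type and less RNA per cell cannot be told apart. Nfe2, a factor of the megakaryocyte and erythroid lineages, went the other way (difference 1.72, SE 0.20, adjusted p = 5.03e-05).

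Cxcl2, a neutrophil chemoattractant, read 3.94, 3.73, 5.20 and 5.94 on the MOZ-TIF2 arrays and 8.22, 10.40, 10.62 and 9.33 on those of AML1-ETO, at least a 13.3-fold difference. Il1b, the inflammatory cytokine interleukin 1 beta, read 5.24, 5.40, 5.10 and 5.53 against 7.44, 8.72, 9.47 and 8.69. Both were near background in GFP GMP too (5.15 ± 0.65 and 5.54 ± 0.38, SD, n = 3), which set AML1-ETO GMP apart. Ctla2a and Ctla2b, related inhibitors of cysteine proteases whose probe sets may read each other's RNA, were lower by at least 11.7-fold and by 11.1-fold. Gadd45g, a stress-induced growth arrest gene, was 11.9-fold lower (difference -3.58, SE 0.31). Id3, an inhibitor of basic helix-loop-helix factors, was at least 7.40-fold lower, Ptprf, a receptor tyrosine phosphatase, at least 4.15-fold and Dab2, an endocytic adaptor, 7.66-fold. All 24 of these largest differences were called again with the tag as a factor and stayed called with each of the 8 arrays left out. They also had 1 sign within both tags, which their choice as genes without overlap fixed beforehand.

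**Figure D1:**
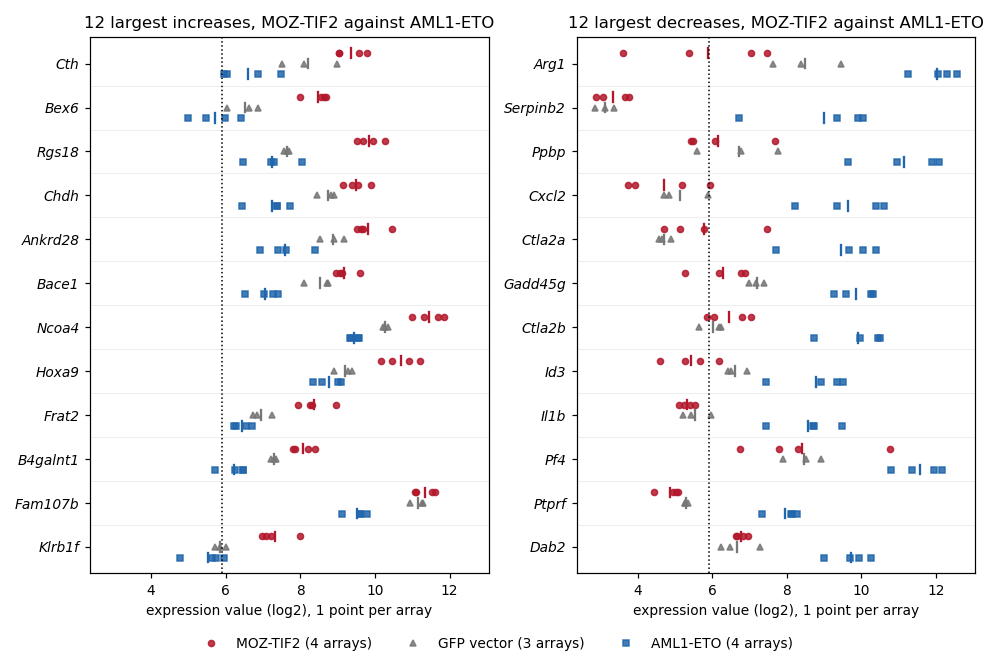
Expression values (log2) of the 12 genes most increased and the 12 most decreased in MOZ-TIF2 against AML1-ETO GMP, 1 point per array, with short vertical bars at the group means and the dotted line at the background of 60 (5.91 log2). MOZ-TIF2 and AML1-ETO points do not overlap in any of the 24 genes, which were chosen for that, and the GFP points of Serpinb2, Cxcl2 and Il1b sit with those of MOZ-TIF2.

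Promoter sequences are shown for the 3 largest increases and the 3 largest decreases that the RefSeq promoter table (build GRCm38.p6) lists, since these genes carry the extremes of the comparison; Cth, Rgs18 and Arg1 are named only. Each run is the 250 bases before the first listed start of the gene, 5′ to 3′ on the gene's strand. Bex6 lies at chr16:32179550-32179799 (plus strand), Chdh at chr14:30008750-30008999 (plus strand), Ankrd28 at chr14:31830416-31830665 (minus strand), Serpinb2 at chr1:107511173-107511422 (plus strand), Ppbp at chr5:90768268-90768517 (plus strand) and Cxcl2 at chr5:90903649-90903898 (plus strand). Capitals mark matches on either strand to 4 motifs: TGTGGT and TGCGGT, letters that RUNX1 binds, TGANTCA, the letters of AP-1 sites with any middle base, and the NF-kB motif.
Bex6: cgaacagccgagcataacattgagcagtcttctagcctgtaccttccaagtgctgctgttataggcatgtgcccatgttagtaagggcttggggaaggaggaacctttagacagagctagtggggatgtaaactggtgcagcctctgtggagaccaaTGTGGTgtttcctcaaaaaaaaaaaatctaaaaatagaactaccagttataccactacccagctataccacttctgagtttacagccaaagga
Chdh: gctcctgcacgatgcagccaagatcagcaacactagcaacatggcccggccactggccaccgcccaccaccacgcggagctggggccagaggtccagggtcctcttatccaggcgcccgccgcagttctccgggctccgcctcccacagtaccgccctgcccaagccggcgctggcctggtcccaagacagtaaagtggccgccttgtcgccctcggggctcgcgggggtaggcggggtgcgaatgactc
Ankrd28: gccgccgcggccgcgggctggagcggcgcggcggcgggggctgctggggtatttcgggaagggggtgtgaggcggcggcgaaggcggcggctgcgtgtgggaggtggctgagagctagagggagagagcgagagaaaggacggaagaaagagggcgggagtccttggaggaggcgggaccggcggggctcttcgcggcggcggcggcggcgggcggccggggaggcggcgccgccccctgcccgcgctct
Serpinb2: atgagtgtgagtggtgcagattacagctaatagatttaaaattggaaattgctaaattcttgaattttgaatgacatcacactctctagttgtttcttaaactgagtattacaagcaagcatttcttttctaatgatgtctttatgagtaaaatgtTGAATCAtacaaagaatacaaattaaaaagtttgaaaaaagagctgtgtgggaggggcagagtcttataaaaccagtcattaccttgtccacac
Ppbp: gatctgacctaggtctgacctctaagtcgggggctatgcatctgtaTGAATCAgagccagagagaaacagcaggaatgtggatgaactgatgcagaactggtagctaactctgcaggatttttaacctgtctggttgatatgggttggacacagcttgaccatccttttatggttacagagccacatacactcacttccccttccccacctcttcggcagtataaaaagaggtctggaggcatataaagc
Cxcl2: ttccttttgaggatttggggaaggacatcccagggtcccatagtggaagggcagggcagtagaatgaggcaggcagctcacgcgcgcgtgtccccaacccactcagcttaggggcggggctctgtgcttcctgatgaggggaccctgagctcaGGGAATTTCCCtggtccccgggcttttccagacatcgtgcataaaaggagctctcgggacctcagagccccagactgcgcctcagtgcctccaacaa

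In these windows Bex6 held TGTGGT, 93 to 88 bases before the start. Serpinb2 held TGANTCA 94 to 88 bases before its start and Ppbp 204 to 198 bases before it. The Cxcl2 window held a pair of overlapping NF-kB matches between 97 and 87 bases before the start, and those of Chdh and Ankrd28 held none of the 4. Over all 27025 promoters of the table, 14.2% held TGTGGT, 5.06% TGCGGT, 6.87% TGANTCA and 7.01% the NF-kB motif. Among the 12 largest decreases 11 had an entry and 4 held TGANTCA: Serpinb2, Ppbp, Ctla2a and Ctla2b. Among the genes tested, 20.6% of 714 promoters of genes called higher held TGTGGT or TGCGGT, beside 16.5% of 1074 called lower and 17.1% of 4084 not called. TGANTCA stood in 3.50%, 5.49% and 3.99% of the same sets and the NF-kB motif in 7.70%, 9.96% and 8.20%. These matches describe letters in a window and not binding.

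Hoxa9 and Meis1 were higher in MOZ-TIF2 GMP, while other members of their list were not. Hoxa9, which maintains progenitors and is a common target of leukemia fusions, read 10.92, 10.47, 10.17 and 11.20 against 8.58, 9.09, 8.34 and 9.02. Its difference was 1.93 (SE 0.23, adjusted p = 4.68e-05, 3.82-fold), and GFP arrays lay at 9.19 ± 0.26 (SD, n = 3), between the groups and nearer AML1-ETO. Meis1, the partner of HOXA9 on DNA, read 6.54, 6.14, 5.21 and 7.21 against 4.50, 5.19, 4.98 and 4.74. Only 3 of the 8 arrays, all MOZ-TIF2, reached background, and MOZ-TIF2 replicate 3 lay just above the highest AML1-ETO array (difference 1.42, SE 0.32, adjusted p = 0.00459). Of 6 tested genes of the Hoxa cluster and its cofactors, 2 were called higher and 2 lower (66.7%, beside 30.1% of all genes). The lower ones were Pbxip1, which binds PBX proteins (-1.55, SE 0.24), and the cofactor Pbx2 (-0.64, SE 0.19). The call of Pbx2 was lost with the tag as a factor, and so it was in 4 of the 8 fits that left out 1 array.

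Among 18 tested genes of stem cells and early progenitors, 6 were called higher and 4 lower (55.6%, beside 30.1% of all genes), with a list median of -0.12. Sox4, a factor that blocks myeloid differentiation, read 8.89, 8.12, 8.13 and 9.01 in MOZ-TIF2 and 6.45, 7.16, 7.30 and 7.13 in AML1-ETO GMP (2.89-fold), and both lay above GFP (5.27 ± 0.57 SD, n = 3). Lmo2, a scaffold of hematopoietic transcription complexes, was 2.44-fold higher and Myb and Kit, the progenitor factor and the stem cell factor receptor, 1.71-fold and 1.80-fold. Cd34, a surface marker that is high on stem cells and GMP, was 2.99-fold lower, at 8.41, 8.01, 7.60 and 6.94 against 8.64, 9.78, 9.30 and 9.55. Within tag A the difference of Cd34 was -0.64 and within tag B -2.60. Txnip, an inhibitor of thioredoxin, was 3.03-fold lower, and Eng, an accessory TGF-beta receptor, 1.49-fold, a call lost without MOZ-TIF2 replicate 4 or AML1-ETO replicate 3. A dimmer probe set of Eng differed by -1.93 (SE 0.22, adjusted p = 4.22e-05).

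Regulators of granulocyte and monocyte fate divided in both directions, 6 called higher and 9 lower of 24 tested (62.5%, beside 30.1% of all genes). Cebpa, which GMP need to form and to become granulocytes, read 9.25, 9.29, 9.42 and 9.43 on the MOZ-TIF2 arrays and 8.06, 7.89, 6.99 and 7.61 on those of AML1-ETO. The MOZ-TIF2 values lay close together and near GFP (9.08 ± 0.18 SD, n = 3), while those of AML1-ETO were all lower (difference 1.71, SE 0.18, adjusted p = 2.6e-05). Cebpd was 2.86-fold higher, Gfi1, a repressor that favours granulocytes over monocytes, 2.34-fold and Cebpg 1.51-fold. Spi1, the gene of PU.1, was 1.58-fold higher (difference 0.66, SE 0.21, adjusted p = 0.0281), and its call was lost without MOZ-TIF2 replicate 4 or AML1-ETO replicate 1. Cebpb, the C/EBP factor of emergency granulopoiesis and macrophages, was lower at 9.84, 10.15, 10.04 and 9.95 against 10.65, 10.71, 10.89 and 10.54. Id2 joined Id3 among the lower genes (4.65-fold), as did the E protein gene Tcf4 (2.05-fold). GFP values of 4 of the 6 called higher and 5 of the 9 called lower lay nearer MOZ-TIF2 GMP.

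**Figure D2:**
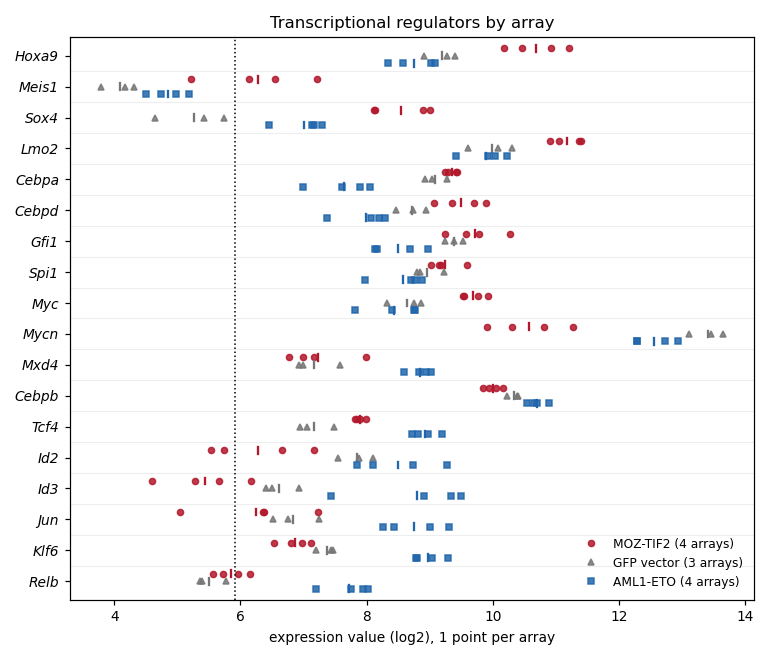
Expression values (log2) of 18 regulators of transcription in MOZ-TIF2, GFP vector and AML1-ETO GMP, 1 point per array, short bars at the means and the dotted line at background. Cebpa of MOZ-TIF2 arrays sits beside that of GFP arrays, Hoxa9 and Lmo2 of AML1-ETO arrays sit nearer GFP, and Myc and Mycn go in opposite directions.

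The genes of MYC and its relatives moved against each other. Myc, a driver of growth, read 9.92, 9.55, 9.53 and 9.76 in MOZ-TIF2 and 8.75, 8.40, 7.81 and 8.76 in AML1-ETO GMP (difference 1.26, SE 0.19, adjusted p = 0.000348). GFP arrays (8.65 ± 0.29 SD, n = 3) lay by AML1-ETO. Mycn, the related gene, read 10.81, 9.90, 10.30 and 11.28 against 12.73, 12.29, 12.93 and 12.29, and was higher still in GFP (13.41 ± 0.27 SD, n = 3). Its difference of -1.99 (SE 0.26) was 3.96-fold. Mxd4, Mnt and Mxd3, which bind MAX and oppose MYC, were lower by 3.07-fold, 1.42-fold and 1.28-fold, and Mlx, a MAX-like factor, was 1.65-fold higher. Of 8 tested genes of this network 2 were thus called higher and 4 lower (75.0%, beside 30.1% of all genes).

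Genes of ribosome biogenesis were mostly higher in MOZ-TIF2 GMP. Of 41 tested, 36 were called higher and 0 lower, against 12.1% and 17.9% of all genes, and all 41 differences were above 0. The list median was 0.89, beside -0.03 over all genes; it was 1.13 in the arrays of tag A and 0.87 in those of tag B. Differences ran from 0.08 for Polr1a, a subunit of RNA polymerase I, to 1.58 for Tsr1, both named for their place at the ends of the range. Gnl3 (nucleostemin), a nucleolar GTPase of progenitors, read 10.13, 9.86, 9.71 and 9.88 against 8.31, 8.60, 8.33 and 9.08 (2.49-fold). The RNA helicase Ddx21 read 9.08, 8.82, 8.56 and 8.82 against 7.30, 7.67, 7.53 and 7.85 (2.35-fold). Bop1 and Nop16, which act in assembly of the large subunit, were 1.89-fold and 2.10-fold higher. Leaving out 1 array gave 33 to 38 calls, the tag as a factor kept all 36, and 40 of the 41 genes were over background in both groups.

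Vector GMP stood on the AML1-ETO side for this list. The GFP mean was nearer AML1-ETO in 34 of the 36 called genes and nearer MOZ-TIF2 in 2. GFP arrays share tag A with 3 of the 4 MOZ-TIF2 arrays and with AML1-ETO replicate 1, and over the arrays of that tag alone GFP was nearer MOZ-TIF2 in 11 of the 36. The motif CACGTG, which MYC binds with MAX, stood in 1 of the 35 promoters listed for these genes. It stood in 8.91% of those listed for the genes tested and in 6.05% of all promoters.

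**Figure D3:**
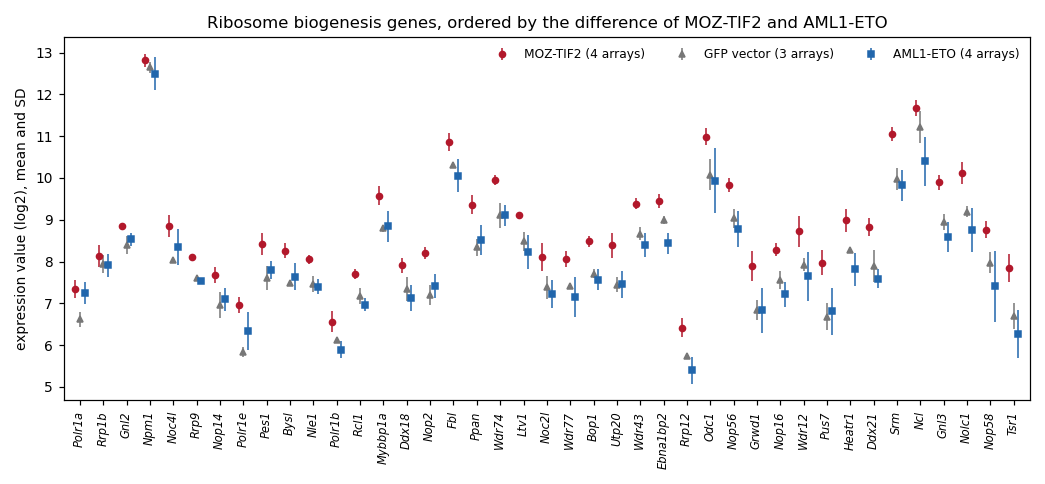
Mean and SD of the expression values (log2) of 41 ribosome biogenesis genes in MOZ-TIF2, GFP vector and AML1-ETO GMP, ordered from the smallest to the largest difference. MOZ-TIF2 lies above AML1-ETO for all 41, from 0.08 for Polr1a to 1.58 for Tsr1, and GFP lies nearer AML1-ETO for 34 of the 36 called higher.

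Fewer of the DNA replication genes were called, all of them higher. Of 39 tested, 15 were called higher and 0 lower (median 0.42), and 37 differences were above 0. The share called was 38.5%, beside 30.1% of all genes called and 12.1% called higher. Mcm6, part of the replicative helicase, read 11.18, 11.05, 10.71 and 10.96 in MOZ-TIF2 and 9.75, 9.90, 9.80 and 10.50 in AML1-ETO GMP (1.99-fold). Dut, the dUTPase, was 1.89-fold higher, the helicase factor Cdc45 1.83-fold and Gins1 1.63-fold. AML1-ETO replicate 4 had the highest value of that group for all 4. Here GFP was nearer MOZ-TIF2 in 13 of the 15 called genes, unlike for ribosome biogenesis. The count was 9 without MOZ-TIF2 replicate 1 and 23 with the tag as a factor. Genes of G2 and mitosis did not share the direction: of 35 tested, 1 was called higher and 2 lower (median 0.10). Of 11 genes of cell cycle control 0 were called higher and 1 lower. The shares called in these lists, 8.57% and 9.09%, were below the 30.1% of all genes.

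Genes of amino acid synthesis, transfer RNA charging and the endoplasmic reticulum, many of them targets of the stress factor ATF4, were mostly higher. Of 36 tested, 20 were called higher and 3 lower (63.9%, beside 30.1% of all genes), with a median of 0.60. Asns, asparagine synthetase, read 10.63, 10.63, 10.90 and 10.82 against 9.74, 9.57, 8.84 and 9.54 (2.50-fold). Phgdh and Psat1, which make serine, were 2.24-fold and 1.94-fold higher, and Gars, which charges glycine transfer RNA, 2.00-fold. These genes, named for their small adjusted p, did not overlap between the groups, like 1730 of all 2135 called genes. The tag as a factor kept 19 of the 20 calls. Opposite to the list, Cebpb and Xbp1, a factor of the unfolded protein response, were 1.63-fold and 1.61-fold lower. The cystine transporter gene Slc7a11 was called lower (-0.53, adjusted p = 0.0459), a call that was lost in 6 of the 8 fits that left out 1 array.

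Primary granule genes, which GMP and promyelocytes make, were called higher in 8 and lower in 2 of 15 tested (66.7%, beside 30.1% of all genes, median 0.37). Ms4a3, a marker of GMP, read 12.19, 12.02, 11.85 and 12.25 on the MOZ-TIF2 arrays and 10.39, 11.31, 10.57 and 11.26 on those of AML1-ETO (2.29-fold). Mpo, myeloperoxidase, was 1.45-fold higher (difference 0.53, SE 0.14, adjusted p = 0.0122) and Igsf6 1.54-fold. Calr, calreticulin, which is also in the list of the endoplasmic reticulum, was 1.52-fold higher. GFP was nearer MOZ-TIF2 in 7 of the 8 genes called higher. The lower members were Ctsc, the protease that activates granule enzymes (1.84-fold), and Lyz2, the lysozyme of monocytes and granulocytes (1.38-fold, a call lost without MOZ-TIF2 replicate 3, MOZ-TIF2 replicate 4 or AML1-ETO replicate 3).

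Genes of later neutrophil maturation went the other way, with 1 called higher and 10 lower of 23 tested (47.8%, beside 30.1% of all genes, median -0.55). Lcn2, an iron-scavenging granule protein, read 10.47, 10.79, 11.33 and 10.89 against 12.24, 12.36, 12.62 and 12.68, a 3.04-fold difference (adjusted p = 1.38e-05). Camp, the cathelicidin, was 3.07-fold lower, Lrg1 2.71-fold and the neutrophil surface gene Cd177 at least 1.48-fold. GFP was nearer AML1-ETO in 8 of the 10. Ifitm6 was called higher (2.39-fold), though highest in GFP (10.93 ± 0.36 SD, n = 3). Of the 10 lower calls, 6 were kept with the tag as a factor. Neutrophil markers as a sum spanned 12.5 to 14.1 in MOZ-TIF2, 13.9 to 14.6 in AML1-ETO and 14.6 to 14.7 in GFP GMP, and their part in these differences was not tested.

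Monocyte and macrophage genes were called higher in 0 and lower in 11 of 30 tested (median -0.39). The share called was 36.7%, beside 30.1% of all genes called and 17.9% called lower. Clec7a, the beta-glucan receptor dectin 1, read 7.22, 7.81, 8.13 and 7.92 in MOZ-TIF2 and 9.22, 9.95, 10.09 and 9.44 in AML1-ETO GMP (3.73-fold). Tlr2 and Tlr4, receptors for bacterial lipoproteins and lipopolysaccharide, were 2.62-fold and 4.08-fold lower, and the lysosomal protease Ctsl 2.36-fold. The list median was 0.04 in the arrays of tag A, where AML1-ETO has 1 array, and -1.06 in those of tag B, but 10 of the 11 calls were kept with the tag as a factor. Of the defining macrophage markers, Csf1r differed by -0.57 (adjusted p = 0.00293), Adgre1 by -0.57 (0.0836) and Cd68 by -0.36 (0.248). C1qb, over background in both groups, differed by 0.14 (0.809), and C1qa and Mrc1 had means under 60 in both groups. The summed level of the 6 markers was 12.5 to 13.0 in MOZ-TIF2 and 13.3 to 13.5 in AML1-ETO GMP, and its part in the differences was not tested.

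Immediate early genes, which signals from growth factors and stress switch on within minutes, were mostly lower in MOZ-TIF2 GMP. Of 24 tested, 0 were called higher and 15 lower (62.5%, beside 30.1% of all genes), with a median of -1.03. Jun, a subunit of AP-1, read 5.04, 6.37, 7.23 and 6.36 against 8.26, 9.01, 9.31 and 8.43 (5.66-fold). Klf6, a zinc finger factor, read 6.80, 7.12, 6.97 and 6.54 against 8.78, 8.80, 9.29 and 9.04 (4.35-fold, adjusted p = 1.77e-06). Zfp36l1, which speeds the decay of AU-rich messengers, was 4.63-fold lower, and Ppp1r15a, a regulator of the stress response, 2.07-fold. The groups were clear of each other for all 4, which were named for their small adjusted p. The same held for 1730 of all 2135 called genes. GFP was nearer MOZ-TIF2 in 14 of the 15 called genes, beside 81.2% of all genes called lower. Of the 15, 13 were called with the tag as a factor as well, and leaving out 1 array gave 12 to 18 calls.

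NF-kB pathway genes followed the same direction, with 0 called higher and 7 lower of 13 tested (53.8%, beside 30.1% of all genes, median -0.84). Icam1, an adhesion molecule induced by NF-kB, read 6.07, 5.84, 6.15 and 6.15 against 7.61, 7.97, 8.38 and 8.33 (4.05-fold). Relb and Rela, subunits of NF-kB, were lower by at least 3.53-fold and by 1.97-fold. Tnip1, an inhibitor of the pathway, read 8.40, 8.40, 8.41 and 8.59 against 9.81, 9.70, 9.72 and 9.70, a narrow spread on both sides (2.43-fold). All 7 calls were kept with the tag as a factor. GFP was nearer MOZ-TIF2 in 6 of them, beside 81.2% of all genes called lower.

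**Figure D4:**
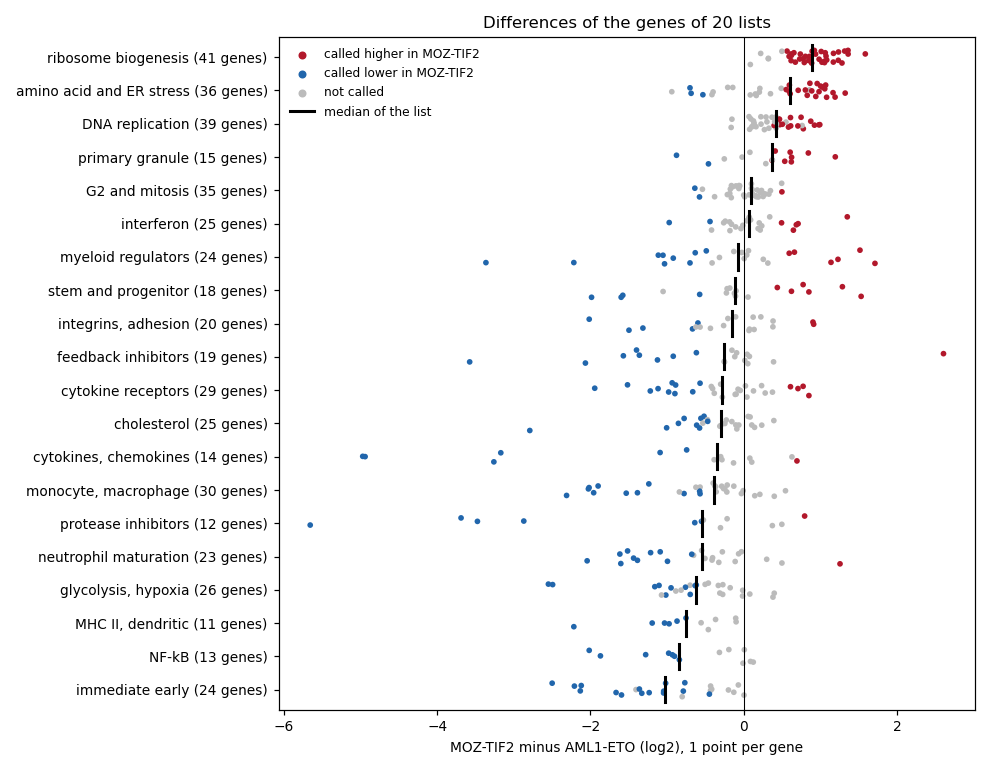
Differences (MOZ-TIF2 minus AML1-ETO, log2) of the tested genes of 20 lists, 1 point per gene, coloured by call, with a black bar at each list's median; the vertical scatter within a list carries no value. All points of ribosome biogenesis (median 0.89) lie to the right of 0, and most of the immediate early genes (median -1.03) lie to the left.

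In the other lists of signalling genes more members were called lower than higher, and at least as many members were not called as were called. Of 14 tested cytokine and chemokine genes 6 were called lower and 1 higher (50.0%, beside 30.1% of all genes). Of the 6, 4 were over background in both groups, and 2 of the 14 were over it in AML1-ETO GMP only. Another 19 on the array were over background on fewer than 2 arrays of either group and were not tested. The higher one, Ccl9, differed by 0.69 (adjusted p = 0.0401) with overlapping arrays, and its call was lost with the tag as a factor and in 5 of the 8 fits that left out 1 array. Of 29 cytokine receptor genes 10 were called lower and 4 higher (48.3%, beside 30.1% of all genes). Of the 10, 6 were over background in both groups, and 4 of the 29 were over it in AML1-ETO GMP only. Tgfbr2, the type II TGF-beta receptor, read 6.57, 6.64, 6.83 and 6.44 against 7.59, 8.29, 8.48 and 8.18 (2.86-fold), whereas Tgfbr1, the type I receptor, was 1.63-fold higher, a call lost in 5 of the 8 fits that left out 1 array. Csf2rb2, the beta chain of the interleukin 3 receptor, was 2.33-fold lower, Tnfrsf1a, a TNF receptor, 1.59-fold and Il13ra1 at least 1.83-fold. Besides Kit, Il21r (1.71-fold) and Cxcr4 (1.52-fold), the receptor that holds progenitors in marrow, were higher. The call of Cxcr4 was lost in 4 of the 8 fits that left out 1 array. Without MOZ-TIF2 replicate 3, MOZ-TIF2 replicate 4 or AML1-ETO replicate 1 the higher calls numbered 2.

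Feedback inhibitors of signalling were called lower in 8 and higher in 1 (Rgs18) of 19 tested (47.4%, beside 30.1% of all genes). Of the 8, 5 were over background in both groups, and 3 of the 19 were over it in AML1-ETO GMP only. Dusp16 and Dusp3, phosphatases of MAP kinases, were lower by at least 1.72-fold and by 1.89-fold, and Errfi1, an inhibitor of EGF receptor family kinases, by at least 2.05-fold. Protease inhibitors were called lower in 6 and higher in 1 of 12 (58.3%, beside 30.1% of all genes), and 4 of the 12 were over background in AML1-ETO GMP only. Serpinb8, an intracellular relative of Serpinb2, read 3.42, 3.40, 3.59 and 3.40 against 5.39, 6.64, 7.19 and 6.07, at least 1.33-fold. Slpi, the secretory leukocyte protease inhibitor, was called higher (0.79, adjusted p = 0.0253) but lost the call in 4 of the 8 fits that left out 1 array, and MOZ-TIF2 replicate 4 and AML1-ETO replicate 4 both read 11.98. Integrin and adhesion genes were called lower in 5 and higher in 2 of 20, a share of 35.0% near the 30.1% of all genes. Itga6 and Itgav were 2.82-fold and 2.49-fold lower, while Itgb2, the beta chain of leukocyte integrins, and Adgre5 (CD97) were 1.88-fold and 1.87-fold higher. The lower count was 3 without MOZ-TIF2 replicate 1, AML1-ETO replicate 2 or AML1-ETO replicate 3 and 8 without AML1-ETO replicate 1.

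In both lists of other metabolic genes the calls were all lower, though most members did not pass the test. Of 26 tested genes of glycolysis and the hypoxia response, 0 were called higher and 10 lower (median -0.63), and GFP was nearer AML1-ETO in 8 of the 10. The share called was 38.5%, beside 30.1% of all genes called and 17.9% called lower. Within the tags the list median was smaller, -0.40 in tag A and -0.26 in tag B. With the tag as a factor it was -0.45, 8 of the 10 lower calls were kept and 2 members were called higher. Aldoc, an aldolase, read 5.97, 6.26, 7.11 and 6.93 against 9.10, 9.47, 8.84 and 8.83 (5.63-fold). P4ha2, a collagen prolyl hydroxylase, was at least 4.02-fold lower, Ndrg1 2.15-fold and Pfkl, a phosphofructokinase, 1.62-fold. Of 25 genes of cholesterol and fatty acid metabolism, 0 were called higher and 9 lower (median -0.30), a share called of 36.0%. This median was -0.28 in tag A and -0.07 in tag B, and the tag as a factor kept 8 of the 9 calls. Abca1, which exports cholesterol, read 5.00, 5.47, 6.20 and 5.95 against 6.98, 8.88, 9.09 and 8.83, at least 5.81-fold. Srebf1, the regulator of lipid synthesis, was 2.01-fold lower, Elovl6, a fatty acid elongase, 1.81-fold and Fdft1, squalene synthase, 1.72-fold.

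Antigen presentation and dendritic cell genes were called lower in 6 and higher in 0 of 11 (54.5%, beside 30.1% of all genes), Id2 and Tcf4 among them. Of the 6, 4 were over background in both groups. H2-Ab1 and H2-DMa of class II presentation were 1.97-fold and 1.83-fold lower. All 3 called genes of mast cells, basophils and eosinophils (of 5 tested, 60.0% beside 30.1% of all genes) were lower. These were Hdc, which makes histamine (2.77-fold), the mast cell protease Cpa3 (2.59-fold) and Prg2, an eosinophil granule protein (at least 2.29-fold, a call lost without MOZ-TIF2 replicate 3 or AML1-ETO replicate 2). The defining mast cell and basophil genes Ms4a2, Fcer1a, Cma1 and Tpsb2 had means under 60 in both groups. Mcpt8 of the same markers was over background in both, with means of 6.62 and 7.32 (difference -0.71, adjusted p = 0.0572). The summed level of the 6 markers was 7.88 to 8.32 in MOZ-TIF2 and 8.30 to 9.49 in AML1-ETO GMP. Of 13 lipid mediator genes 5 were called lower and 1 higher (46.2%, beside 30.1% of all genes). Of the 5, 3 were over background in both groups. The lower count was 3 with the tag as a factor and without MOZ-TIF2 replicate 1, MOZ-TIF2 replicate 2, AML1-ETO replicate 2 or AML1-ETO replicate 3. Ptger4, a prostaglandin E2 receptor, was 2.20-fold lower and Ptgir, the prostacyclin receptor, at least 2.19-fold, against Lta4h, leukotriene A4 hydrolase, at 1.7-fold higher.

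Survival genes were called lower in 6 and higher in 2 of 20, a share called of 40.0% beside 30.1% of all genes. The higher ones were Bid and Ei24, a p53 target (difference 0.45, adjusted p = 0.0445), whose call was lost in 6 of the 8 fits that left out 1 array. The higher count was 1 in 5 of those 8 fits. Pmaip1, the death-promoting protein NOXA, read 6.41, 6.23, 5.98 and 6.22 in MOZ-TIF2 and 7.51, 8.21, 8.11 and 8.36 in AML1-ETO GMP (3.57-fold). Mcl1, which NOXA binds and which protects myeloid cells, was 1.7-fold lower as well, Plk2 at least 1.44-fold and Bad 1.67-fold, while Bid was 1.63-fold higher. Interferon genes were called higher in 5 and lower in 2 of 25 (median 0.06), a share called of 28.0% near the 30.1% of all genes. The higher count was 3 without MOZ-TIF2 replicate 3. The lower count was 0 with the tag as a factor and 1 without MOZ-TIF2 replicate 1, MOZ-TIF2 replicate 2, AML1-ETO replicate 2 or AML1-ETO replicate 3. Gbp3, a guanylate-binding GTPase, was 2.55-fold higher and Psmb8, an immunoproteasome subunit, 1.57-fold. Of 15 Wnt pathway genes 4 were called lower and 1, the corepressor gene Tle3 (1.74-fold), higher, a share of 33.3% near the 30.1% of all genes; with the tag as a factor 7 were lower and 2 higher. Its relative Tle1 (1.76-fold) and Dvl1 (1.67-fold), which relays the signal from the receptor, were lower.

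The genes joined in the fusions were not called by their brightest probe sets. Kat6a read 7.65, 7.68, 7.64 and 7.97 in MOZ-TIF2 and 7.73, 8.11, 8.17 and 8.30 in AML1-ETO GMP (difference -0.34, SE 0.13, adjusted p = 0.0628). Runx1 read 7.30, 7.16, 7.69 and 7.34 against 7.05, 8.02, 8.33 and 7.88 (difference -0.45, SE 0.24, adjusted p = 0.188), and its difference was 0.33 within tag A and -0.74 within tag B. Of its other probe sets, both dimmer, 1 was called lower (-0.76, SE 0.12, adjusted p = 0.000409) and 1 differed by 0.04 (adjusted p = 0.891). Ncoa2 and Runx1t1 were under background on all 8 arrays and were not tested. The labels do not tell which part of these genes the probe sets read, so these values do not check the labels. Among 10 tested genes of the fusion partners and their complexes 1 was called higher and 1 lower (20%, beside 30.1% of all genes). The lower count was 4 without AML1-ETO replicate 1 and 2 without MOZ-TIF2 replicate 4, and the higher count was 2 with the tag as a factor.

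Vector GMP placed the differences on 1 side or the other. The GFP mean was nearer MOZ-TIF2 than AML1-ETO in 1034 of the 1273 genes called lower in MOZ-TIF2 GMP (81.2%) and in 355 of the 862 called higher (41.2%), beside 59.8% of all genes tested. Over the arrays of tag A alone these shares were 72.6%, 58.9% and 66.9%. The GFP mean lay between both oncogenes in 819 of the genes called lower and 634 of those called higher, below both in 414 and 137, and above both in 40 and 91. The GFP arrays are the study's control of both oncogenes, and these positions are descriptions.

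Within the tags the signs of the called genes were mostly alike. Of the genes called higher, 849 of 862 were higher within both tags, and of those called lower 1192 of 1273 were lower within both. In the 1730 called genes without overlap between the groups, the sign within a tag could not differ. With each of the 8 arrays left out in turn, 1416 of the 2135 genes stayed called throughout. The difference itself was called as unlike between tags in 14 genes (0.197%), of which 8 were among the 2135.

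**Figure D5:**
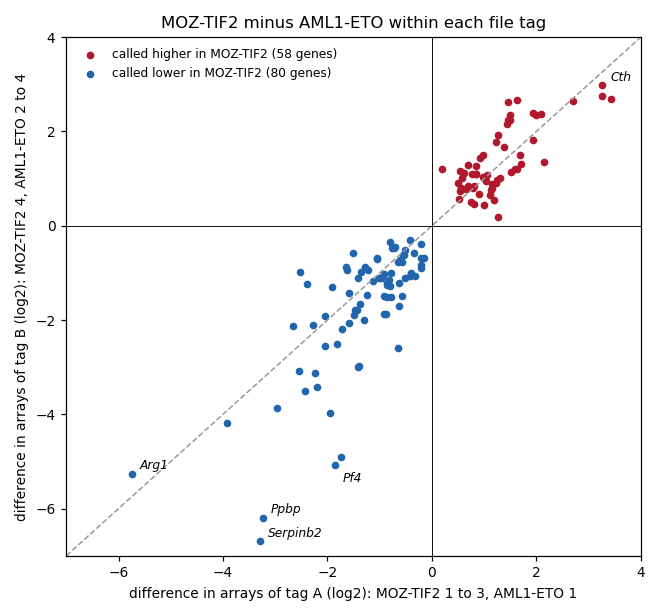
Differences (MOZ-TIF2 minus AML1-ETO, log2) of 58 named genes called higher and 80 called lower, in the arrays of tag A (horizontal axis) and of tag B (vertical axis), with the dashed line where both are equal. All 138 genes have 1 sign in both tags. In genes whose groups do not overlap, as the 24 largest differences were chosen, the sign could not differ. Serpinb2, Ppbp and Pf4 lie below the line, with larger decreases in tag B. The rest of the 143 named genes called lack a value in a tag and are not shown.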

How the data were processed

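RNA was measured on 24 short-oligonucleotide arrays, 1 sample each. The deposited table holds log2 values that the authors made with GCRMA 2.4.1 from MAS5 cell files, per the submitters' processing notes. Outlier arrays were removed and a level over 60 with present calls was required, per the series design text; the removed arrays and present calls were not used here. Of 22690 probe sets, 64 controls were left out and 20380 had 1 symbol, 691 several and 1555 none.

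Limma 3.58.1 in R 4.3.3 (lmFit, eBayes) fitted 1 mean per group to the 14 transduced arrays. A probe set entered the test with a linear value over 60 (5.91 log2) on 2 or more MOZ-TIF2 or 2 or more AML1-ETO arrays; p-values were adjusted by Benjamini-Hochberg and called under 0.05. Each gene was read from its brightest probe set by the mean of all 24 arrays. Where a group's mean was under 60, the fold is the brighter mean against 60, mostly written as "at least". It bounds the fold of the means as measured. Some genes had arrays of the dimmer group over 60, among them Arg1, Ctla2a, Id3 and Bex6. Raising the other arrays of that group to 60 would give these a smaller fold. On simulated data 43.3% of 67 probe sets changed 1.5-fold, 88.1% of 67 changed 2-fold and all 66 changed 4-fold were recovered, with 12 false calls among 11236 tested. The simulated noise was independent between arrays and probe sets and held no tag effect. Changes were put only into probe sets with a mean more than 1 log2 unit over background. These rates thus do not cover the file tag or genes near background.

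The comparison and the 32 gene lists were chosen with earlier results of these data known. Named genes are the 12 largest increases and 12 largest decreases without overlap between groups, up to 4 called members of each list by adjusted p in each direction (lists with 4 calls or 25% of members called), and 10 genes fixed by name. Others, among them the ends of the ribosome list, Csf1r, Adgre1, Cd68 and further markers, were named after their values were seen. A list is described by counts and its median, with no set test. Arrays with the same replicate number did not deviate together (correlations 0.11, -0.15, 0.18 and 0.17), so no pairing was used. Alternatives covered the samples fitted, the replicate number, the file tag, normalization, filter, probe sets per gene, moderation, the methods' t-test and each array left out. The number of arrays limits the precision.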

Additional observations from a re-analysis of the deposited data

Results flagged for a closer look

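Among 52 sets of 4 arrays looked at (both groups for the 24 largest differences and for the RNA integrity measures), 3 had 1 array far from the other 3, where chance gives about 1 in 20. These were Bex6 in MOZ-TIF2 replicate 2 (7.98), Ankrd28 in MOZ-TIF2 replicate 4 (10.45) and Ptprf in AML1-ETO replicate 1 (7.34).

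The difference between MOZ-TIF2 and AML1-ETO GMP was unlike in the 2 file tags for 14 genes by a limma interaction term. The difference of Serpinb2 was 3.41 less negative in tag A than in tag B (adjusted p = 0.0229). The others were Ap1m2, Aqp8, Cdc37, Egfl7, Egr2, Gspt1, Gusb, Mogat2, Olfm1, Rps27, Slc37a2, Tpm4 and Ubqln1. AML1-ETO has 1 array in tag A and MOZ-TIF2 has 1 in tag B.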

How the results depend on the processing

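The comparison gave 3247 probe sets, 1401 higher in MOZ-TIF2 GMP and 1846 lower, and 2356 genes by any probe set. Counts stayed within 1.5 times under most alternatives, and moved under these. With the file tag as a factor 2578 were higher, so that 58.1% of calls were higher against 43.1%; in tag A alone 2482 were higher. In tag B alone 724 were called (301 higher, 423 lower, 545 genes). The methods' t-test called 961 (318 higher, 643 lower, 786 genes). Leaving out 1 array gave 2413 to 3335 probe sets, 996 to 1675 higher, 1417 to 2072 lower and 1794 to 2392 genes. With the replicate block, which the array deviations did not call for, 3366 were called. Quantile normalization gave 50.9% higher and setting every array to the same mean and SD, chosen after seeing that the SD differed with the tag, 48.2%. Runx1, not called, reversed in tag A (0.33). Of the 143 named genes called, 136 were called again with the tag as a factor and 125 with each array left out. The cause of these shifts was not tested. Genes near background have only bounds on their folds.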
